A study of Mus musculus with 4 samples.

Results

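The genes described here are Runx1, Runx2, Runx3, Cbfb, Gfi1, Gfi1b, Myb and Mybl2, 8 of 21779 protein-coding genes, chosen by name as transcription factors of blood cell development. For each gene, the peaks that overlap the gene body or the 1 kb on each side of it were taken from 4 CUT&Tag libraries. The cells were primary haematopoietic stem cells of mouse bone marrow, wild type for Ppp2ca. In CUT&Tag an antibody brings a transposase to its target, and the transposase cuts and tags the DNA around it for sequencing. An antibody to PPP2CA, the catalytic subunit of the phosphatase PP2A, was used in 2 of them (PPP2CA 1 and PPP2CA 2), and control immunoglobulin G in the other 2 (IgG 1 and IgG 2). The question was which genomic sites PPP2CA occupies. All libraries share 1 genotype and 1 cell type, and the labels give no treatment and no age. The labels do not tie the libraries to single animals, so the spread within a group may be technical.

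RUNX1, RUNX2 and RUNX3 are the DNA-binding subunits of core binding factor, and CBFB is the partner that stabilises them on DNA without touching it. RUNX1 is needed for blood stem cells to arise in the embryo, RUNX2 directs bone formation, and RUNX3 is best known in T cells and sensory neurons. Each Runx gene is transcribed from a distal and a proximal promoter. GFI1 and GFI1B are zinc finger repressors that recruit the histone demethylase KDM1A. GFI1 acts in stem cells and neutrophils and GFI1B in the erythroid and megakaryocyte lines. MYB maintains blood progenitors, and MYBL2 works with the MuvB complex at genes of cell division.

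A region below is a place with a peak in both PPP2CA libraries and in neither IgG library, of which there were 12438 in the genome. Regions that touch a window of 1 kb before or after a gene boundary are called boundary regions, and those inside a gene and clear of these windows intragenic. Of the 8 genes, 7 had a boundary region, all but Runx2, against 39.5% of all protein-coding genes. All 7 boundary regions lay at the start of the gene and 0 at its end. Among the 17492 protein-coding genes with a known strand, 38.9% had a region at the start and 4.4% at the end. With intragenic regions added, 8 of 8 had a region, against 45.3% of protein-coding genes. The intragenic regions numbered 11, and all were in Runx1, Runx2 or Runx3. The other 5 genes had none.

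The promoters that carried these regions differ in their bases, and a few are printed here to show starts with and without a region side by side. The sequences come from RefSeq (GRCm38.p6) and give the 250 bases before a start, 5′ to 3′ on the strand of the gene. All 8 genes have an entry, with 11 starts in all. Capitals mark exact matches, on either strand, to motif letters fixed by name of the factor. For RUNX factors these were TGTGGT and the variant TGCGGT. For MYB proteins the letters were AACTG, and for GFI1 proteins they were AATCAC. The letters of the erythroid factor GATA1 were AGATAA. For ETS factors they were CCGGAA, and for the half-site of CREB proteins TGACG. The E2F letters were TTTCGCG.
Runx1 distal, chr16:92826075-92826324, minus strand, with a region: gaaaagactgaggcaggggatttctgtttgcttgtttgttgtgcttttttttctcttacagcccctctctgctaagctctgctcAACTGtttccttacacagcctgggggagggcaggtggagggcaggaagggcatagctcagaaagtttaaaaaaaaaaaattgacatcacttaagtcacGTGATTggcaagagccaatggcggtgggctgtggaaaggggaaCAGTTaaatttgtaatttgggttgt
Runx1 proximal, chr16:92697330-92697579, minus strand, with a region: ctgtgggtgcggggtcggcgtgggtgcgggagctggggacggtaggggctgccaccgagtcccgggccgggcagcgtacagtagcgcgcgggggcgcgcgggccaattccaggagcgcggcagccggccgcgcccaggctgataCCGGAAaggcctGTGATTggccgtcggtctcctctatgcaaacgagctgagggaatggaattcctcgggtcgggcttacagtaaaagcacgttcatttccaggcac
Runx2 distal, chr17:44814628-44814877, minus strand, without a region: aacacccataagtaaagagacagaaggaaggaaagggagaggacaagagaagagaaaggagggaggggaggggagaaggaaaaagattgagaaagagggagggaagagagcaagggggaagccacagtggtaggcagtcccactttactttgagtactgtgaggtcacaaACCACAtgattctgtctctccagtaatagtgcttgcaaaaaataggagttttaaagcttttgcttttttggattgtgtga
Runx3 distal, chr4:135120395-135120644, plus strand, with a region: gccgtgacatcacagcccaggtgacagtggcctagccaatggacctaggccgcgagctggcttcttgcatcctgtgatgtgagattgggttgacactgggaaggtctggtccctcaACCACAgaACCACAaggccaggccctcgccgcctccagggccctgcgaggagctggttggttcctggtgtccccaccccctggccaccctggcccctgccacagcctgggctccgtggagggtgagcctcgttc
Runx3 proximal, chr4:135152295-135152544, plus strand, with a region: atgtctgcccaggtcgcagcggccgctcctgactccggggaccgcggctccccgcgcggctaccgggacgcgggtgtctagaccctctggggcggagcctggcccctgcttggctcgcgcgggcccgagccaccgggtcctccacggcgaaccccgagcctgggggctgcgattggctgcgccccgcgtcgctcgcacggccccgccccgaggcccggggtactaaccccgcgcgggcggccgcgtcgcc
Gfi1b, chr2:28621983-28622232, minus strand, with a region: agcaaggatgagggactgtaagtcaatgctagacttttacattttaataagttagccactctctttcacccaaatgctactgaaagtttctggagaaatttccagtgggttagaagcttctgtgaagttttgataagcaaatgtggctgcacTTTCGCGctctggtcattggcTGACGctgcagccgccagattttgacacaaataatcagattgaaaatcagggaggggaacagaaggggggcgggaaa
Myb, chr10:21160985-21161234, minus strand, with a region: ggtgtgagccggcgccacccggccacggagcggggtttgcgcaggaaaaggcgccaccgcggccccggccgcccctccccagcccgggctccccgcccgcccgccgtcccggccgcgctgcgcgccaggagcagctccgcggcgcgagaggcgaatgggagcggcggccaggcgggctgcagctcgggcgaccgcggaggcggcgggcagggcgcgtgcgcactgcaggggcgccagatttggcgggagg

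The distal starts of the Runx genes share a stretch that holds the RUNX motif letters as a close pair, shown next with the motif in capitals because it is common to a start without a region and to 2 with one.
Runx1, chr16:92826028-92826051: aaacaACCACAgaACCACAagttg
Runx2, chr17:44814586-44814609: aaacaACCACAgaACCACAagtgc
Runx3, chr4:135120506-135120529: cctcaACCACAgaACCACAaggcc
The longest run of bases common to the 3 windows is 18 bases, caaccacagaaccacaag. Of the 21263 start windows of protein-coding genes in the table (250 bases before to 50 after a start), 3 hold it, and these are the 3 distal Runx starts. It begins 26 bases after the start of Runx1, 21 bases after that of Runx2 and 136 bases before that of Runx3. The single motif TGTGGT is common, being present in 15% of the windows and in 3 of the 11 member windows. Runx2, the distal start without a region, holds it 3 times. Of the other letters, AACTG was present in 3 of the 11 windows (41.7% of all windows), AATCAC in 2 (9.81%), CCGGAA in 2 (18.7%) and TGACG in 1 (23.6%). AGATAA was in none of the 11 and in 9.65% of all windows, and TGCGGT was in 1, that of Runx2, and in 7.44% of all. The searched letters do not overlap one another in the sequences shown.

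In base composition the 11 starts of the 8 genes ran from CpG-poor to CpG-rich. CpG ratio here is the observed over the expected number of CG pairs in the 300-base window. The Runx1 and Runx2 distal windows had a CpG ratio of 0.137 and 0.143, in the lowest quintile of all windows. The Runx1 and Runx3 proximal windows had 1.01 each, and Cbfb and Myb had 0.987 and 0.952, all in the highest quintile. Of the 11 windows 9 overlapped a region, against 38.3% of all windows. The exceptions were the Runx2 distal start and the start of Gfi1 that lies 1462 bp inside the gene. Over all protein-coding genes, the share of windows with a region was 1.91% (81 of 4250) in the lowest quintile and 9.19%, 40.1%, 65.5% and 74.8% in the following ones. The Runx1 distal start was thus 1 of 81 marked windows in a class where regions are rare, and the Runx3 distal start (CpG ratio 0.264) 1 of 391 in the next. All 4 member windows in the highest quintile were marked. At Gfi1b (CpG ratio 0.492) the window holds TTTCGCG, which occurs in 1.19% of all windows.

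**Figure D1:**
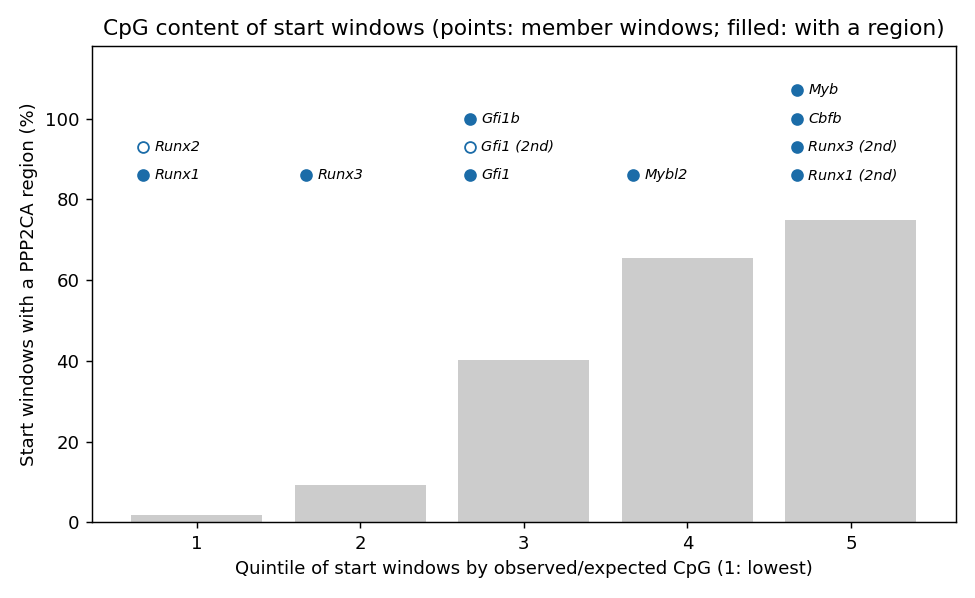
Bars show the percent of start windows with a PPP2CA region in each quintile of CpG ratio, over 21263 windows of protein-coding genes. Points show the quintile of each of the 11 member windows (their height carries no value, and filled points have a region). The marked Runx1 and unmarked Runx2 distal windows are both in the quintile where 1.91% are marked.

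No IgG peak lay in or within 1 kb of any of the 8 genes, and 2.08% of protein-coding genes had one. The nearest IgG peak was 263 kb from Runx1 and 2629 kb from Myb, with the other genes between these. This absence is limited by depth. Fragment numbers were recovered from the authors' fold and p of each peak, and the genome-wide background came to 0.78 and 0.80 fragments in PPP2CA 1 and 2 and to 0.0839 and 0.0833 in IgG 1 and 2. A place with equal signal under both antibodies would therefore hold 1.06 to 4.43 fragments in an IgG library at the 18 member regions, where the lowest called IgG summit holds 3. At 14 of the 18 the number is under 3, so an equal IgG signal there would not have been called. The other 4 are the starts of Runx1 and Runx3, the Runx3 proximal region and the strongest region inside Runx2. The number there is 3.38 to 4.43 and the median called IgG summit holds 4, so an equal IgG signal could have gone uncalled there too.

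The PPP2CA lists held 16811 and 17686 peaks with a median summit of 18 fragments in each, and the IgG lists 561 and 310 peaks with a median of 4. A two-sided exact permutation test of 2 libraries against 2 cannot go below a p of 1 in 3, so none is given, and values are described per library. Intervals are 95% exact Poisson intervals and cover counting error only. In a bulk library, fewer cells with a signal and less signal per cell cannot be told apart. The label of haematopoietic stem cells could be set only against the places of peaks, since no RNA was measured. Of 9 stem cell markers 3 had a boundary region (Kit, Mecom and Meis1), and Ly6a, Procr, Cd34, Slamf1, Hlf and Gata2 had none. Boundary regions were present at 1 of 10 lymphoid markers, 2 of 8 myeloid, 5 of 9 erythroid and megakaryocyte and 2 of 8 stromal and endothelial ones, against 39.5% of all protein-coding genes, so the stem cell share of 33.3% was no higher than the general one.

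Among the core binding factor genes, Runx3 had the strongest start. Its region on chromosome 4 at 135119740 to 135121141 held 44 fragments at the summit in PPP2CA 1 (32 to 59.1) and 40 in PPP2CA 2 (28.6 to 54.5), with a fold of 7.25 and 6.36 over local background. Both summit heights exceeded the median of the 7509 regions at protein-coding gene boundaries, which was 28 and 31 fragments. The median fold of those regions was 6.92 and 6.88. The Runx3 fold was thus above the median in PPP2CA 1 and below it in PPP2CA 2. The summits lay 448 and 216 bp before the Runx3 start. They lay 179 bp after and 53 bp before the start of Gm16225, a long noncoding RNA gene on the opposite strand, so the region cannot be given to 1 of the 2 genes.

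At the distal start of Runx1, on chromosome 16 at 92825047 to 92826376, the summit held 28 fragments in PPP2CA 1 (18.6 to 40.5) and 36 in PPP2CA 2 (25.2 to 49.8). The fold was 4.16 and 4.77, lower than in the other 6 boundary regions in either library, and the local background there was the highest of the 7, at 5.97 and 6.76 fragments. The summits were 26 bp before and 146 bp after the start. No other annotated gene overlaps this region.

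Cbfb, which encodes the shared beta subunit, had a start region on chromosome 8 at 105170240 to 105171422. Its summit held 19 fragments in PPP2CA 1 (11.4 to 29.7) and 24 in PPP2CA 2 (15.4 to 35.7), and the fold was 5.21 and 6.07. Both values were below the median of boundary regions. Further inside Cbfb, PPP2CA 2 alone had a peak of 9 fragments, 41.5 kb from the start.

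Runx2 had no peak of any library within 1 kb of either boundary. Its distal start is therefore the exception among the 3 Runx genes, in a window as CpG-poor as that of Runx1. The strongest place inside Runx2, on chromosome 17 at 44776786 to 44777711, held 30 fragments in PPP2CA 1 (20.2 to 42.8) and 43 in PPP2CA 2 (31.1 to 57.9), with a fold of 9.20 and 11. That fold was the highest of the 18 member regions in both libraries. The region covers the start of Supt3, a gene for a transcription coactivator subunit that runs in the opposite direction through Runx2. The summits lay 16 and 13 bp after the Supt3 start and 37.6 kb inside Runx2.

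Gfi1 and Gfi1b had weak start regions. At Gfi1, on chromosome 5 at 107725146 to 107726465, the summit held 17 fragments in PPP2CA 1 (9.90 to 27.2) and 24 in PPP2CA 2 (15.4 to 35.7), with a fold of 4.54 and 5.29. At Gfi1b, on chromosome 2 at 28621368 to 28622096, it held 14 in each library (7.65 to 23.5), with a fold of 5.02 and 4.89. The Gfi1 summits lay 294 and 187 bp after the start and the Gfi1b summits 260 and 82 bp after it. Gm52548, a long noncoding RNA gene, overlaps the Gfi1b region. Neither repressor gene had a peak further inside.

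Myb and Mybl2 were at the same level. The Myb region, on chromosome 10 at 21160935 to 21161675, held 14 fragments in each library, with a fold of 4.85 and 4.89. Its summit was 381 bp before the start in PPP2CA 1 and 10 bp after it in PPP2CA 2. The Mybl2 region, on chromosome 2 at 163054374 to 163055048, held 16 fragments in PPP2CA 1 (9.15 to 26) and 14 in PPP2CA 2 (7.65 to 23.5), with a fold of 5.31 and 5.95. By the start in the promoter table, its summits were 75 bp after and 84 bp before it. By the gene boundary, which the summary and figure of summit positions below use, they were 383 and 224 bp after the start. In Mybl2, PPP2CA 1 alone had a further peak of 10 fragments, 1.4 kb inside the gene. Of the 7 marked starts, 5 were below the median of boundary regions in both libraries: Cbfb, Gfi1, Gfi1b, Myb and Mybl2.

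**Figure D2:**
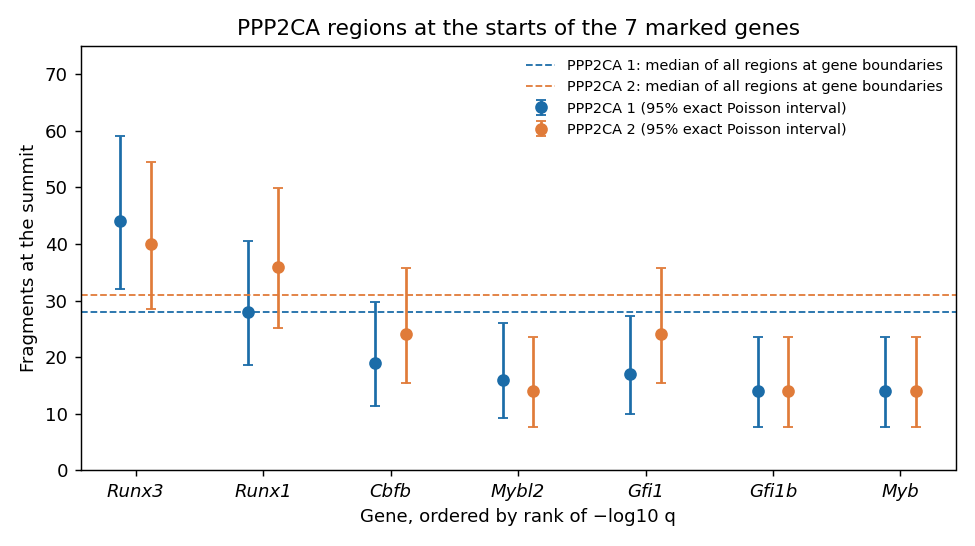
Fragments at the summit of the start region of each marked gene, in PPP2CA 1 and PPP2CA 2, with 95% exact Poisson intervals. Dashed lines are the medians of all regions at protein-coding gene boundaries (28 and 31 fragments); Runx3 lies above them in both libraries and 5 genes lie below them in both.

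Ordered by the worse of the 2 within-library ranks of −log10 q, the marked genes ran Runx3, Runx1, Cbfb, Mybl2, Gfi1 and then Gfi1b and Myb, which tied. For each pair of neighbours in this order the intervals of the summit fragments overlapped in both libraries. The order itself rests on −log10 q, which also depends on local background. Mybl2 (16 and 14 fragments) thus stands above Gfi1 (17 and 24). Whether a step of the order exceeds counting error was not tested. A summit is a height at 1 position, and gene length does not enter it. Among the 8609 marked protein-coding genes, Runx3 was in place 3511, Runx1 in 5994 and Cbfb in 6149. Mybl2 followed in place 6518, and Gfi1 in 6973, while the tied Gfi1b and Myb took places 7277 and 7278. The genes next to each in that order are the nearest to it by the worse of the 2 ranks, and their other rank can differ. For Runx3 they were Ube3c and 4921524J17Rik, for Runx1 Zscan2 and Med15, for Cbfb Ttc1 and Arl8b, and for Mybl2 Prkar2a and, tied with it, Npepl1. For Gfi1 they were Syce1l and Depdc5, while Gfi1b followed Psmb6 and Myb preceded Atrx.

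Summits stood close to the gene starts. In both libraries all 7 were within 500 bp of the start, and the same held for 86.1% and 86.2% of the 6810 marked starts of all genes, whose median summit was 71 and 75 bp after the start. The 2 libraries did not place the summits of the start regions at the same base. The gap between them was 107 to 391 bp at the 7 starts, with a median of 172 bp, and at 0 of 7 it was 100 bp or less. Over the 4047 boundary regions with a mean summit of 14 to 42 fragments, the range of the members, the gap was 100 bp or less at 54.2%, with a median of 87 bp. These regions were matched to the members by range alone, and 5 of the 7 members were below the median of boundary regions in both libraries. At the 11 intragenic member regions the gap was 100 bp or less at 4, with a median of 158 bp. The gap over all intragenic regions was not computed, so this count has no general share beside it.

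**Figure D3:**
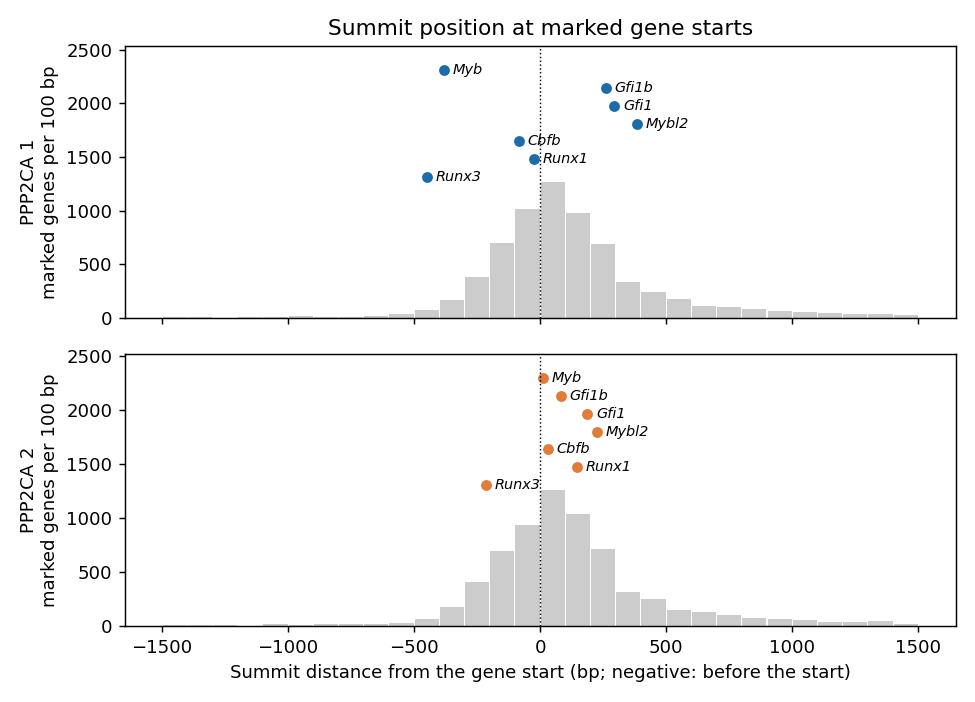
Grey bars count the marked protein-coding genes by the distance of the summit from the gene start, in bins of 100 bp, for PPP2CA 1 (top) and PPP2CA 2 (bottom). Points give the 7 members (their height carries no value), all within 500 bp of the start, with the Runx3 summit before the start in both libraries.

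Inside the gene bodies, the Runx genes held all the regions of the set. Runx1 and Runx2 had 4 intragenic regions each and Runx3 had 3, against an intragenic region at 10.7% of protein-coding genes. Long genes have more room, so density was set beside it. The 3 Runx genes, which held all the intragenic regions, together had 1.85 per 100 kb, against 0.303 over all protein-coding genes. All members together had 1.53 per 100 kb, and the members other than the Runx genes had 0. Density also differs with gene length. Runx1 and Runx2 had 1.80 and 1.26 per 100 kb, against a pooled 0.183 for genes of 200 to 350 kb. Runx3 had 5.42, against a pooled 0.535 for genes of 20 to 60 kb. Of the 555 genes of 200 to 350 kb, 14 (2.52%) had 4 or more, Runx1 and Runx2 among them. Of the 5851 genes of 20 to 60 kb, 22 (0.376%) had 3 or more, with Runx3 among them, and 14.5% had any. Cbfb, Myb and Mybl2 are of that length too and had none. The cut-offs of 4 and 3 equal the counts of the Runx genes themselves. The Runx2 count includes the region at the Supt3 start. With peaks of −log10 q of 5 or more the intragenic regions numbered 3 in Runx1, 2 in Runx2 and 2 in Runx3. With at least 20 fragments in both libraries they numbered 3, 1 and 1. Densities over all genes were not computed at these settings.

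In Runx1 the intragenic regions lay about 24.4, 110.3, 129.1 and 204.8 kb from the distal start, by the PPP2CA 1 summit. The region at 92696746 to 92697989 covers the proximal start and held 26 fragments in PPP2CA 1 (17.0 to 38.1) and 29 in PPP2CA 2 (19.4 to 41.6), with a fold of 5.10 and 6.45. Distal and proximal starts of Runx1 thus carried summits whose intervals overlap. The region nearest to the distal start, at 92800985 to 92802460, held 23 and 24 fragments in PPP2CA 1 and 2 (fold 6.08 and 5.77). A blood stem cell enhancer is known in the first intron of Runx1, downstream of the distal promoter, and its coordinates were not used here.

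The region farthest from the distal start, at 92620816 to 92621544, had the highest fold in Runx1, at 7.07 and 8.22. Its summit held 21 and 28 fragments. The remaining one, at 92715458 to 92716187, was weak, with 16 and 9 fragments. Its PPP2CA 2 peak was near the end of that list, at rank 16779 of 17686.

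In Runx3 the region at 135151884 to 135154275 covers the proximal start and, at 2392 bp, was the widest of the 18. It held 37 fragments in PPP2CA 1 (26.1 to 51) and 43 in PPP2CA 2 (31.1 to 57.9), with a fold of 5.31 and 5.27. The highest summits lay 1131 and 1238 bp after the proximal start. In PPP2CA 1 the region was made of 2 peaks, neither of which covered that start. The lower one held 30 fragments at a fold of 4.30, with its summit 91 bp before the start. A region 39.6 kb from the distal start held 18 and 20 fragments, with the summit at the same base in both libraries. Another, 8.36 kb from the distal start, held 12 and 15 fragments. Runx3 had no peak that was found in 1 library alone.

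Apart from the Supt3 start, the regions in Runx2 were weak. They held 14 and 17 fragments at 44735632 to 44736381, 8 and 12 at 44672288 to 44673082, and 14 in each library at 44654409 to 44655149. Their fold was 3.97 to 6.22. Of the 11 intragenic regions in the 3 genes, 2 covered a proximal start of the same gene, 1 the Supt3 start, and 8 no start in the RefSeq promoter table. For Runx2 that table gives the distal start, and its proximal start was not analysed here, so whether a Runx2 region lies at it is not known.

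**Figure D4:**
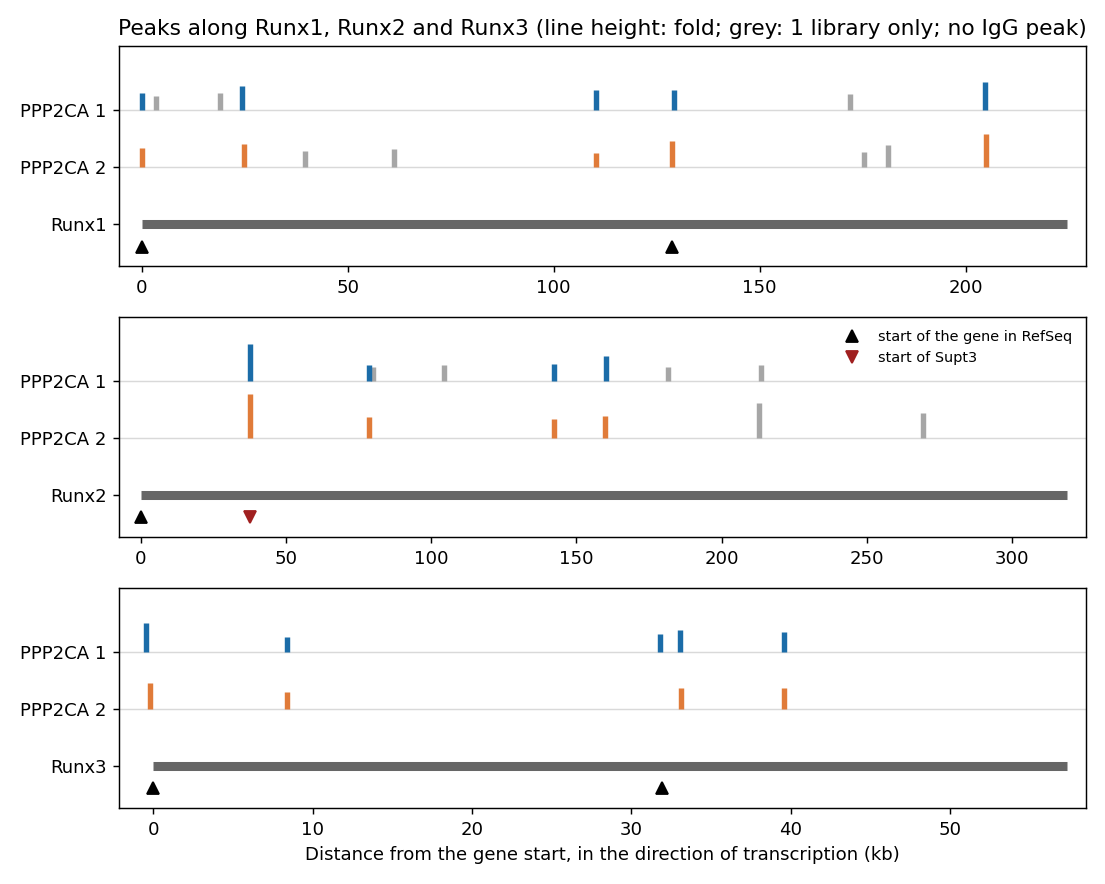
Peaks of PPP2CA 1 and PPP2CA 2 along Runx1, Runx2 and Runx3, by distance in kb from the gene start in the direction of transcription. Coloured lines are peaks in regions found in both libraries and grey lines peaks of 1 library, line height is proportional to fold (the tallest, at the Supt3 start, is 11), and black triangles are RefSeq starts; Runx2 has no peak at its distal start, the Runx2 start that is drawn.

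In all, 27 PPP2CA 1 peaks and 25 PPP2CA 2 peaks touched the 8 genes, and 19 and 18 of them belonged to regions found in both libraries. Every boundary peak did so. Over the whole genome 75.5% of PPP2CA 1 peaks and 71.6% of PPP2CA 2 peaks overlapped a peak of the other library, near the shares of the 8 genes. The 15 peaks of 1 library at the 8 genes were all intragenic, 13 of them in Runx1 and Runx2, and held 5 to 24 fragments. The best of these was a PPP2CA 2 peak in Runx2, 212.7 kb from the start, with 20 fragments, a fold of 8.60 and a −log10 q of 13.9. Another PPP2CA 2 peak, in Runx1, lay over the long noncoding RNA gene Gm30281 and held 8 fragments. At the 18 regions the intervals of the 2 libraries overlapped in every case, and PPP2CA 2 was higher at 12, PPP2CA 1 at 3, with 3 equal. The ratio of PPP2CA 2 to PPP2CA 1 fragments had a median of 1.14 at the 18 and of 1.08 over all 12438 regions.

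These are low summits, and the calls depend on the depth asked of them. With a minimum of 20 fragments in both libraries, boundary regions remained at Runx1 and Runx3 and not at the other 5 genes, while 26.5% of all protein-coding genes passed. With summits required to lie within 100 bp of each other 0 of 8 genes kept one, against 23.2% of protein-coding genes.

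The genes that work with these factors were taken from 4 lists, chosen with earlier results of these data known. Together 46 of 72 listed genes (63.9%) had a boundary region, against 39.5% of protein-coding genes. Of the 21 RUNX and CBFB partners 10 had one. The best ranked were Lyl1, a partner in the stem cell transcription factor complex (226 and 233 fragments in PPP2CA 1 and 2), the corepressor Tle4 (116 and 137) and the histone methyltransferase Kmt2a (66 and 62). Ets1, Lmo2, Ldb1, Fli1, Erg and Sin3a had no boundary region but an intragenic one, and Gata1, Gata2, Runx1t1, Yap1 and Prmt1 had neither.

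Of the 14 listed genes of the GFI1 and GFI1B corepressor complex 9 had a boundary region, led by Rcor1, the CoREST scaffold (64 and 69 fragments), and the deacetylases Hdac1 (63 and 58) and Hdac2 (35 and 33). Kdm1a, the demethylase itself, held 19 and 23. Zmym3, Ehmt2 and Ajuba had no region, and Gse1 and Sin3a had an intragenic one alone. The MYB coactivators and MuvB/DREAM genes had 14 of 16, with the acetyltransferase Ep300 (142 and 204 fragments), the histone chaperone Rbbp4 (132 and 138) and Lin52 (109 and 126) the best ranked, and Lin37 and E2f4 without one. The third member of the MYB family, Mybl1, held 33 and 29.

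Among 22 known targets of these factors in blood cells 13 had a boundary region. The best ranked were the immediate-early gene Egr1 (1025 and 1128 fragments), Myc (85 and 107) and the cytokine signalling inhibitor Socs1 (71 and 80). The myeloid genes Csf1r, Mpo, Elane and Cebpe, the lymphoid genes Gata3, Il7r and Cd4, and Id1 and Cdkn1a had no boundary region, though Csf1r and Cdkn1a had an intragenic one. The median summit of the marked genes in the 4 lists was 30.5 to 44 fragments in PPP2CA 1 and 34 to 46 in PPP2CA 2. That of the 7 start regions described here was 17 and 24, and that of all 8609 marked genes 29 and 32. The lists were not matched on CpG content, and its part in these counts was not tested.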

How the data were processed

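CUT&Tag libraries of haematopoietic stem cells, 2 with a PPP2CA antibody and 2 with IgG, were grouped and numbered by sample title. The authors deposited 1 peak list per library. Per the submitters' processing notes, GRCm38 (mm10) was the build, and the tools included Trimmomatic, BWA and MACS2, without versions or settings. The deposited fold of a peak is the ratio of the summit to the background around it. The authors' lists further hold the −log10 p and −log10 q of the summit, and a deposited score of 10 times the −log10 q, which was not used. The sources used here do not say whether IgG was the control in calling.

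Summit fragments were recovered as the whole number that gives the deposited −log10 p as a Poisson tail when local background is (fragments + 1) / fold − 1. The relative error on the deposited peaks was at most 8.76e-06. The recovery was also run on peaks simulated by the same formula, which checks the search and not the formula. PPP2CA peaks overlapping by 1 bp were merged. Genes came from the RefSeq table of GRCm38.p6, and strands and starts from its promoter table. Protein-coding genes were those on the autosomes, X and Y, without genes that start below 3 Mb on chromosomes other than Y. Python 3.11.15, numpy 2.4.6, pandas 2.3.3 and scipy 1.17.1 were used. No test was run. The alternatives changed the libraries, the peak threshold, the overlap rule and the window.

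Members, lists, motifs and the rule on which genes to name were chosen with earlier results of these data known. The rule named all members, the 3 best ranked genes of each list, the neighbours in rank of each marked member and any gene that shares a member region. The single-library peak in Runx2, Kdm1a and Mybl1 were named after their values were seen. A few listed genes are not reported here and are left out of the lists' counts.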

Additional observations from a re-analysis of the deposited data

How the results depend on the processing

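No paired analysis was possible because the results are counts of peaks and come from no test, so the replicate numbers that PPP2CA and IgG libraries share entered no fit. Leaving out 1 library in turn gave 7 members with a boundary region, 8 with a region anywhere and 7 boundary regions each time, 46 to 49 marked list genes, and 11 to 20 intragenic regions (18 without PPP2CA 1 and 20 without PPP2CA 2, where a peak of 1 library is enough). Of all protein-coding genes 43.8% had a boundary region without PPP2CA 1, 43.2% without PPP2CA 2, and 40% and 39.7% without IgG 1 and 2. Peaks of −log10 q of 5 or more gave 7 intragenic regions, with 7 members and 34.8% of all genes marked at a boundary. Summits of at least 20 fragments in both libraries left 2 members with a boundary region, 3 with a region anywhere, 2 boundary and 5 intragenic regions (26.5% of all genes marked at a boundary). Summits within 100 bp of each other left 0 members with a boundary region, 3 with a region anywhere, 0 boundary and 4 intragenic regions (23.2% of all genes). A reciprocal overlap of 50% left 5 members with a boundary region, without Cbfb and Gfi1 (36.7% of all genes). It left 6 with a region anywhere and 8 intragenic regions. The shares of all genes given for the alternatives are for boundary regions. Shares of all genes with a region anywhere or an intragenic region were not computed under the alternatives. Windows of 500 bp and 2 kb gave 7 members and 11 intragenic regions, with 37.7% and 41.9% of all genes. No IgG peak lay at any member gene, and the IgG alternatives only removed or narrowed IgG calls. Their count of 0 member regions with an IgG peak was therefore fixed in advance. Depth limits these results: 11 of the 18 member regions held fewer than 20 fragments in 1 or both PPP2CA libraries, and the IgG lists are shallower still.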
